A study of Xenopus tropicalis with 6 samples.

Results

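The genes described here are the 6 neural intermediate filament genes *prph* (peripherin), *vim* (vimentin), *nes* (nestin), *nefl* and *nefm* (the light and medium neurofilament subunits) and *ina* (alpha-internexin), 6 of the 23634 genes in the deposited expression table. They were picked by exact symbol, with the difference between control and N1-SRC morphant embryos in these same samples already known, so their values below are a description and carry no test of their own. All 6 symbols matched a gene of the RefSeq table of assembly UCB_Xtro_10.0, in which *xif3* is a former name of *prph* and in which *nefl* and *nefm* are neighbors with 0 genes between them. The samples were whole *Xenopus tropicalis* embryos of the Nigerian strain, cultured at 23 °C to Stage 16, a neurula stage at which the neural plate is folding. In 3 samples the embryos had received 10 ng of a control morpholino and in the other 3, 10 ng of antisense morpholinos that block the splicing of *n1-src*, the neuronal splice variant of the tyrosine kinase gene *src*. The injected reagents were the only difference named between the groups, and the samples are numbered 1 to 3 in both, which pairs them into 3 replicate sets. Nothing in the sources used here says that the sets came from separate clutches, so the spread between sets may be partly technical.

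Intermediate filaments are rope-like cytoskeletal polymers, and the subunits a cell makes change as it matures. Vimentin, a type III subunit, and nestin, a long type IV subunit that assembles together with vimentin, are typical of neural progenitors, and vimentin is also made by mesenchyme and other embryonic cells. Peripherin (type III) and alpha-internexin and the neurofilament proteins (type IV) are typical of postmitotic neurons, in which neurofilaments fill and widen the axon. In frogs, the *prph* gene is a known marker of the developing nervous system.

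Polyadenylated RNA was sequenced as short reads, and the authors gave the level of each gene as TPM (a transcript's scaled share of all transcripts), a measure that accounts for transcript length. TPM carries no read depth, so counting errors are unknown and the spread between samples is the only error available. The number of genes at 1 TPM or more was 12962 to 13126 in controls and 12710 to 12938 in morphants. An annotated pair of genes without a symbol, LOC108645507 and LOC100335111, took 4.89% of all TPM in morphant 1. The pair took 0.193% to 0.525% in the other samples. With this pair left out, the fit still called 2 of the 5 members tested lower, where 634 of 13408 genes tested were called lower. Transcripts of *src*, summed to the gene level, were at 18.7, 25.8 and 49.2 TPM in controls 1 to 3. They were at 15.6, 17.3 and 34.6 TPM in the paired morphants. This sum does not separate *n1-src* from ubiquitous *src* and does not check the knockdown. Markers of neurons, neural plate, neural crest, muscle, notochord, epidermis and blood were all present above 0, as whole embryos require.

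The type III genes *prph* and *vim* fell in morphants, whereas the neurofilament subunits were scarce and neither was lower in every set. *prph* was at 51.2% and *vim* at 72.6% of the control mean, both with all morphant samples below all control samples. The type IV genes *nes* and *ina* were also lower in every set, at 75.0% and 43.0% of the control mean, with *ina* below 0.4 TPM throughout. *nefl* was at 134% and *nefm* at 97.0%. The plot of TPM by sample shows the 6 genes side by side.

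**Figure D1:**
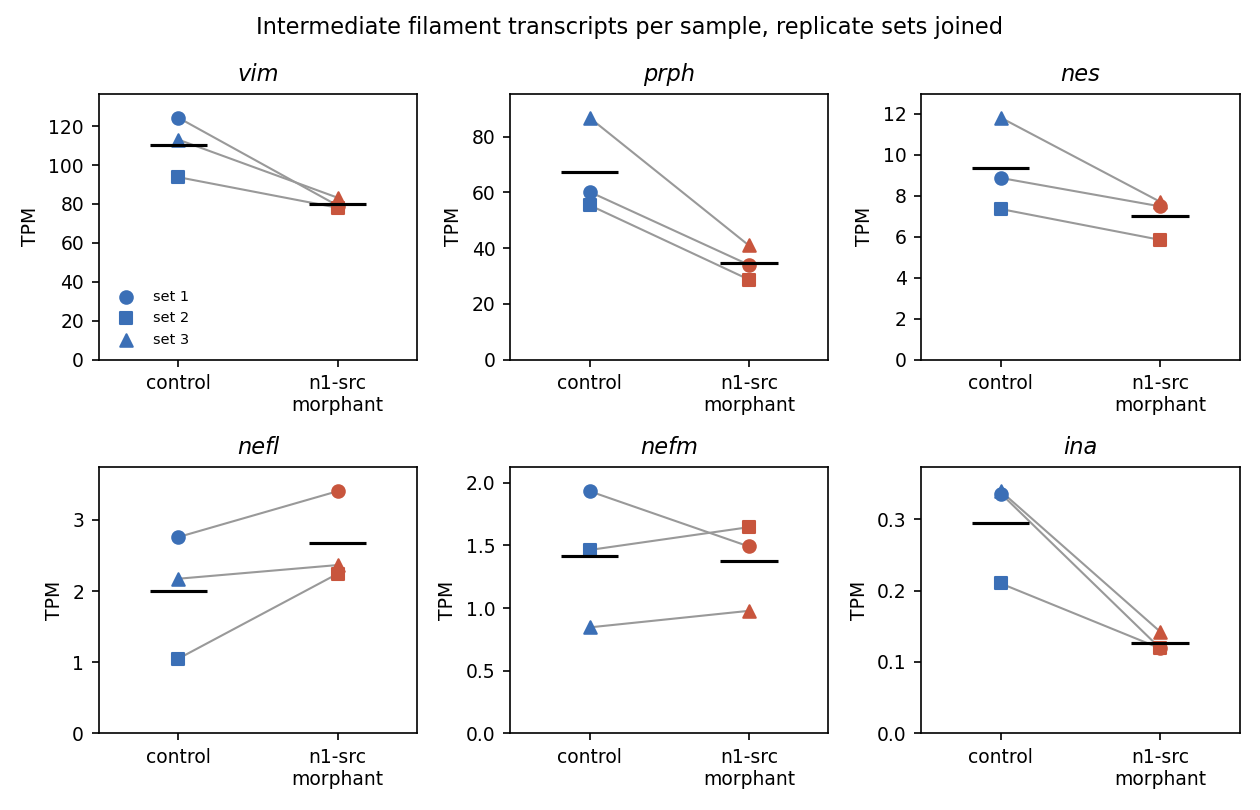
TPM of the 6 neural intermediate filament genes in each sample (control, blue; *n1-src* morphant, red; one marker shape per replicate set, gray lines joining the samples of a set, black bars the means of n = 3; each panel has its own axis from 0). *prph*, *vim* and *ina* have all morphant points below all control points, *nes* and *nefl* move one way in every set with overlapping groups, and the *nefm* lines cross.

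Peripherin had the largest fitted difference of the 5 members tested. *prph* was at 60.2, 55.4 and 86.8 TPM in controls 1, 2 and 3 and at 34.0, 28.7 and 41.0 TPM in morphants 1, 2 and 3. The highest morphant lay below the lowest control, and within each set the morphant held 56.5%, 51.8% and 47.2% of its control. The group means were 67.5 ± 16.9 and 34.6 ± 6.15 TPM (SD, n = 3). On the scale of log2(TPM + 0.5) the differences within sets were −0.81, −0.94 and −1.07, with an SD of 0.13, so the control samples differed from each other more than the sets differed in their change. The fitted log2 fold change was −0.94 with a standard error of 0.072, and 0.867% of the 13382 genes tested had a lower one.

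Vimentin, the most abundant of the 6 transcripts, was lower by a smaller amount. *vim* was at 124.3, 93.8 and 113.1 TPM in controls 1 to 3 and at 79.2, 78.1 and 83.2 TPM in morphants 1 to 3. The morphants did not overlap the controls and were close together, with a mean of 80.2 ± 2.72 TPM against 110.4 ± 15.5 TPM (SD, n = 3). The sets differed more in the size of the change than for *prph*, at −0.65, −0.26 and −0.44 on the log2 scale, and the fitted value was −0.45 with a standard error of 0.084. The set with the smallest difference, set 2, was also the one with the lowest control level.

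Nestin, the filament partner of vimentin in neural progenitors, was far less abundant than *vim* and its groups overlapped. *nes* was at 8.86, 7.35 and 11.8 TPM in controls 1 to 3 and at 7.48, 5.84 and 7.70 TPM in morphants 1 to 3. Each morphant was below its own control, but morphants 1 and 3 lay above control 2. The means were 9.34 ± 2.26 and 7.01 ± 1.01 TPM (SD, n = 3), and the differences within sets were −0.23, −0.31 and −0.59 on the log2 scale. The fitted log2 fold change was −0.37 with a standard error of 0.10.

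The neurofilament subunits were near the lower limit of what was tested, and the neighboring genes *nefl* and *nefm* did not follow each other. *nefl*, the subunit that neurofilaments need to assemble, was at 2.76, 1.05 and 2.17 TPM in controls 1 to 3 and at 3.41, 2.24 and 2.37 TPM in morphants 1 to 3. Each morphant was above its own control and the groups overlapped. The differences within sets were 0.26, 0.82 and 0.10 on the log2 scale, so set 2, whose control was the lowest of all 6 samples, contributed most of the fitted 0.40 (standard error 0.17). *nefm*, whose long tail helps to space filaments in mammalian axons, was at 1.93, 1.46 and 0.845 TPM in controls 1 to 3 and at 1.49, 1.65 and 0.978 TPM in morphants 1 to 3. The differences of −0.29, 0.13 and 0.14 had no common sign, and the fitted −0.0086 with a standard error of 0.15 turned positive when set 1 was left out, at 0.13, or when samples were scaled to their medians, at 0.088.

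Alpha-internexin was the scarcest of the 6. *ina* was at 0.336, 0.210 and 0.339 TPM in controls 1 to 3 and at 0.119, 0.119 and 0.142 TPM in morphants 1 to 3. The groups did not overlap, but both means, 0.295 ± 0.0738 and 0.127 ± 0.0135 TPM (SD, n = 3), were under the minimum of 1 TPM for testing. At such levels a difference on a log scale depends on the constant added to TPM, and it was −0.34 with 0.5, −0.78 with 0.1 and −0.20 with 1 added.

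**Figure D2:**
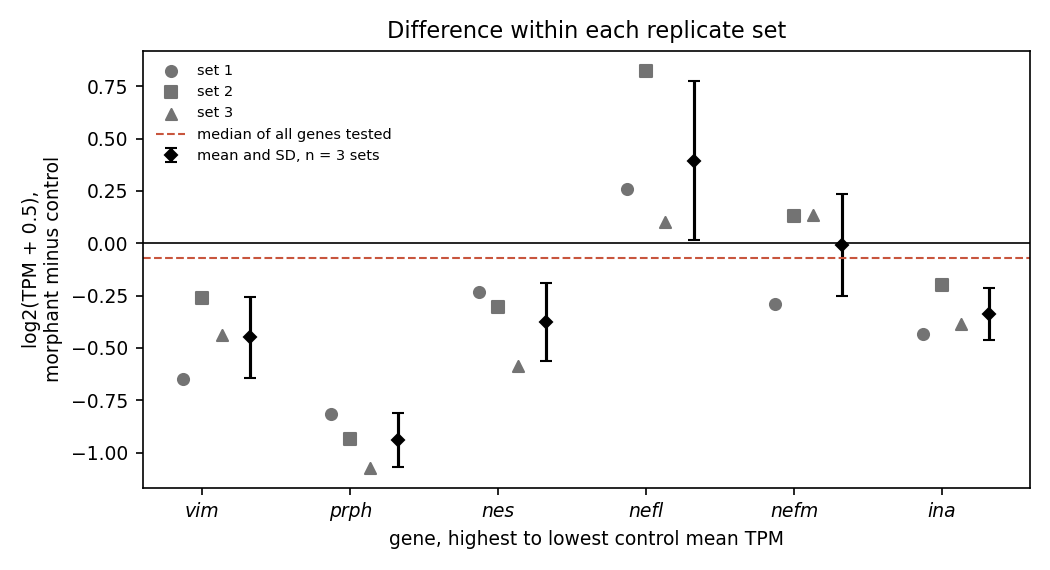
Difference in log2(TPM + 0.5), morphant minus control, within replicate sets 1 to 3 (gray shapes) and their mean with SD (black, n = 3), for genes ordered by control level. *prph* has the lowest points, from −0.81 to −1.07, *nefl* is above 0 in all 3 sets, and the dashed line marks the median of all genes tested, −0.068.

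Of the 6 genes, 4 (*prph*, *vim*, *nes* and *ina*) were lower and 1 (*nefl*) was higher in all 3 sets. Over the 5 members tested, which leave out *ina*, this was 3 lower and 1 higher. Among all genes tested, 38.5% were lower and 17.6% higher in all 3 sets. All morphant samples lay below all control samples for 3 members (*prph*, *vim* and the untested *ina*) and above them for 0. Among the genes tested these shares were 11.3% and 3.71%. With limma and the replicate set as a block, at a Benjamini-Hochberg adjusted p of at most 0.05, 2 of the 5 members tested (*prph* and *vim*) were called lower and 0 higher, where 5.87% of all genes tested were called lower and 2.62% higher. These shares stand for 786 and 350 genes, and with samples scaled to their medians, which moved the median of all genes from −0.068 to 0.029, the counts were 381 lower and 533 higher. At an unadjusted p under 0.05, 3 of the 5 members tested were lower and 0 higher, where 23.4% of all genes tested were lower and 9.76% higher. Since the members were selected on this contrast, nothing is read from these counts.

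Both calls were lost under some other settings. Without the replicate block, 0 of the 5 members were called by limma (2 lower and 0 higher at an unadjusted p under 0.05, where 6.39% of all genes tested were lower and 2.01% higher), and over all genes 0.00747% were called lower, which is 1 gene, and 0% higher. When no minimum TPM was required, 0 members were called, and over all genes 0 were called lower and 0 higher. The call on *vim* was also lost without set 2 (−0.54), without set 3 (−0.46) and under median scaling (−0.35). Over all genes tested, the last 3 settings had 198, 63 and 381 lower calls, against 786 in the main fit.

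The order of the levels was the same in both groups, from *vim* through *prph*, *nes*, *nefl* and *nefm* to *ina*. TPM is per length, so levels of different genes can be set beside each other. In controls the mean level of *vim* was 1.64 times that of *prph*, *prph* was 7.23 times *nes*, and *nes* was 4.68 times *nefl*. Sample ranges of neighbors in this order did not overlap, except for *nefl* and *nefm* in controls, whose means differed 1.41-fold. In morphants the step from *vim* to *prph* was wider, at 2.32-fold, and that from *prph* to *nes* narrower, at 4.94-fold.

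Together the 6 genes held 198.5, 159.3 and 215.1 TPM in controls 1 to 3 and 125.7, 116.7 and 135.4 TPM in morphants 1 to 3, with no overlap. *prph* and *vim* made up 93.0% to 93.7% of this sum in controls and 90.1% to 91.7% in morphants, so the sum follows these genes. The share of *prph* alone was 30.4%, 34.8% and 40.4% in controls and 27.1%, 24.6% and 30.3% in morphants, below its own control in each set.

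**Figure D3:**
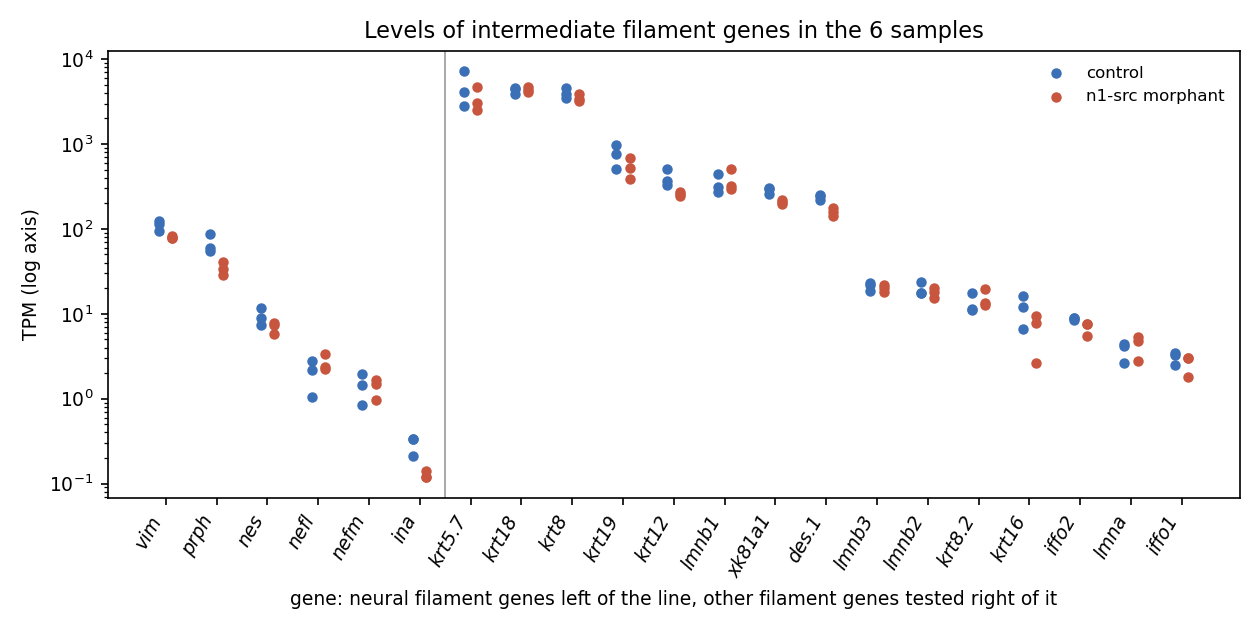
TPM on a log axis in the 3 control (blue) and 3 morphant (red) samples, for the 6 neural filament genes (left of the line) and for the other filament genes that were tested (right of it). Neural filament genes spanned from *vim* near 110.4 TPM to *ina* near 0.295 TPM in the control mean, whereas the keratins *krt5.7*, *krt18* and *krt8* were at 2541 TPM or more in all 6 samples.

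Members also differed in how much they varied among control samples. The highest control exceeded the lowest 2.63-fold for *nefl* and 2.29-fold for *nefm*, but 1.57-fold for *prph* and 1.33-fold for *vim*. It did so 1.61-fold for *nes* and 1.62-fold for *ina*. Control means were 1.99 and 1.41 TPM for *nefl* and *nefm*, against 67.5 and 110.4 TPM for *prph* and *vim*. The part of level in this spread was not tested. On the log2 scale the ranges of *nefl*, *nefm*, *prph* and *vim* were 1.07, 0.86, 0.64 and 0.40, where the median over all genes tested was 0.47. Control 2 was the lowest control for 5 of the 6 genes, with *nefm*, lowest in control 3, as the exception. In morphants the range of *vim* was 0.092 on the log2 scale, against a median of 0.40 over all genes tested.

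Ratios taken within a sample do not depend on how samples are scaled, and they set the members beside other genes of the same embryos. In whole embryos the genes of a ratio may be expressed in different cells. Relative to *vim*, *prph* was at 0.484, 0.591 and 0.768 in controls 1 to 3 and at 0.430, 0.368 and 0.493 in morphants 1 to 3. This ratio was lower in each morphant than in its control, by −0.50 ± 0.28 on the log2 scale (SD, n = 3 sets), and the ratio of *prph* to *nes* changed by −0.55 ± 0.078. The ratio of *vim* to *nes* had no common direction, at −0.055 ± 0.31.

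Set against neuronal tubulins, the ratio of *prph* had no common direction over the sets. Both tubulins had negative log2 fold changes themselves, −0.88 for *tubb2b* and −1.01 for *tubb3*. The ratio of *prph* to *tubb2b*, a beta-tubulin of early frog neurons, was 0.869, 0.782 and 1.00 in controls 1 to 3 and 0.937, 0.623 and 1.02 in morphants 1 to 3, a change of −0.067 ± 0.23 on the log2 scale. The ratio to *tubb3*, another neuronal beta-tubulin, changed by 0.12 ± 0.25. Against *elavl3*, an RNA-binding protein of newly born neurons, *prph* was at 0.722, 0.961 and 1.23 in controls and at 0.456, 0.505 and 0.641 in morphants, lower in all 3 sets by −0.84 ± 0.16. *elavl3* itself was at 83.4, 57.7 and 70.7 TPM in controls and at 74.6, 56.9 and 63.9 TPM in morphants, so the neuronal genes used as references did not move by the same amount.

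The progenitor filament genes were compared in the same way with genes of the neural plate and of mesenchyme. The ratios to *sox2*, a transcription factor gene of neural progenitors, were lower in every set, by −0.58 ± 0.21 for *vim* and −0.52 ± 0.29 for *nes*. *sox2* was the only one of the 4 progenitor markers with a positive log2 fold change (0.12, limma adjusted p = 0.215), beside *sox1* (−0.76), *msi1* (−0.28) and *sox3* (−0.22). Against *msi1*, an RNA-binding protein gene of progenitors, *nes* had no common direction, with changes of −0.041, 0.022 and −0.33 in sets 1 to 3 and a mean of −0.12 ± 0.19. *nes* also had no common direction against the neural adhesion gene *ncam1*. The ratios were 0.627, 0.669 and 0.661 in controls and 0.657, 0.645 and 0.629 in morphants, a change of −0.019 ± 0.076. *vim* showed no common direction against *twist1*, a mesenchymal transcription factor gene of neural crest, at −0.0054 ± 0.28, and its ratio to the muscle filament gene *des.1* changed by 0.13 ± 0.14.

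**Figure D4:**
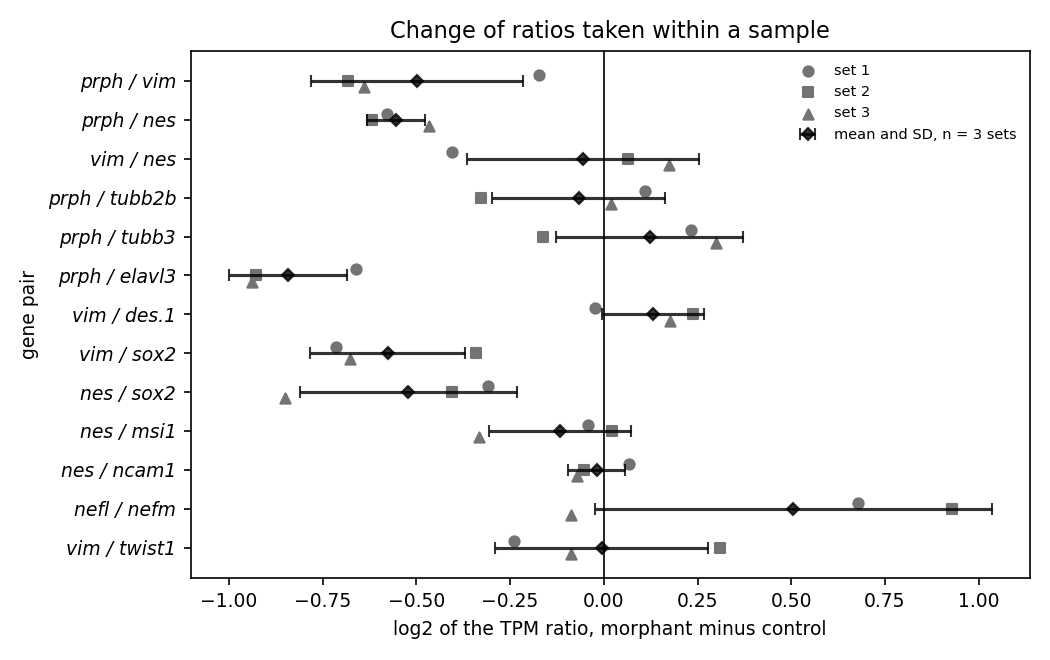
Change in the log2 ratio of TPM between the genes named on the vertical axis, morphant minus control, in each replicate set (gray shapes) with the mean and SD over n = 3 sets (black). *prph* against *elavl3*, *nes* and *vim* lies below 0 in all 3 sets, whereas *prph* against the neuronal tubulins *tubb2b* and *tubb3* falls on both sides of 0.

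These were bulk samples, in which fewer cells of a type and less RNA per cell cannot be told apart. The summed TPM of the 6 neuron markers was 145.3 to 175.6 in controls and 113.0 to 119.4 in morphants, and none of them was at 0. Within this sum the control and morphant means were 75.5 and 40.9 TPM for *tubb2b*, and 70.6 and 65.2 TPM for *elavl3*. Of the 5 neuron markers tested, 2 (*tubb2b* and *tubb3*) were called lower, where 5.87% of all genes tested were called lower. For neural plate progenitors, 2 of 4 markers were called lower and the sums overlapped. For neural crest, 3 of 4 were called lower, with sums of 313.3 to 390.2 TPM in controls and 242.0 to 295.5 TPM in morphants. For muscle, 2 of the 4 markers tested were called lower, with overlapping sums. For notochord, epidermis and blood 0 of 8 were called by limma (3 lower and 0 higher at an unadjusted p under 0.05, where 23.4% of all genes tested were lower). The part of these cell types in the lower *prph* and *vim* was not tested.

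Among the other filament genes, the remaining type III, type IV and orphan subunits were mostly scarce. Of the 9 genes of this kind, 3 were tested and 1, *des.1*, encoding desmin, the type III subunit of muscle, was called lower. Among all genes tested, 5.87% were called lower. *des.1* fell from 218.4, 253.0 and 246.0 TPM in controls to 141.3, 178.5 and 160.2 TPM in morphants, a log2 fold change of −0.58 ± 0.057 (SE; limma adjusted p = 0.0159), with no overlap. The heavy neurofilament gene *nefh*, the second desmin gene *des.2* and *synm*, encoding synemin, were below 1 TPM in both group means and were not tested. *gfap* was not found under that symbol in the expression table.

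The 18 keratin genes gave 8 tested, with a median log2 fold change of −0.42 against −0.068 over all genes tested. Of these 8, 4 were called lower and 0 higher, where 5.87% of all genes tested were called lower and 2.62% higher. *krt19* (−0.48, limma adjusted p = 0.0200), *krt16* (−0.84, 0.0288), *krt12* (−0.59, 0.0358) and *xk81a1* (−0.46, 0.0393) made up this count. Keratins belong to families of similar copies, and how reads were divided among them is uncertain. Without set 2 the list had 2 lower calls, and without set 3 it had 0. Over all genes tested, these settings had 198 and 63 lower calls. The 4 lamins, subunits of the nuclear lamina, had a median of 0.018 and 0 calls in either direction. They also had 0 at an unadjusted limma p under 0.05, where 23.4% of all genes tested were lower and 9.76% higher.

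Genes whose products bind, modify or move filaments were called lower at shares near the 5.87% of all genes tested. These shares were 8.33% for linkers and 4.55% for kinases and genes of turnover and transport. Of the 13382 genes tested, 8341 had a negative log2 fold change, and 38.5% were lower in all 3 sets. All 12 linker genes tested, plakins and partners among them, had a negative log2 fold change (9 of them with samples scaled to their medians). Of these linkers, 10 were lower in all 3 sets. Their median was −0.22 and 1 was called, *svil* (−0.45, limma adjusted p = 0.0360), which encodes an actin-binding membrane linker. Among 22 tested kinases and genes of filament turnover and transport, 1 was called lower, *camk2g* (−0.44, 0.0328), a subunit of calcium/calmodulin kinase. Both calls were lost whichever set was left out. At an unadjusted limma p under 0.05, 6 linkers were lower and 0 higher, and 7 genes of the second list were lower and 2 higher. Over all genes tested, 23.4% were lower and 9.76% higher by that rule. *gan*, encoding gigaxonin, the adaptor through which intermediate filament proteins are degraded in human cells, had a log2 fold change of 0.13 (adjusted p = 0.491).

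RNA-binding proteins described on neurofilament transcripts were 7 tested genes with a median of −0.27, against −0.068 over all genes tested. At an unadjusted limma p under 0.05, 4 were lower and 0 higher. Among all genes tested, 23.4% were lower and 9.76% higher by that rule. By adjusted p, 1 of the 7 was called lower, where 5.87% of all genes tested were called lower. This gene was *pcbp2* (−0.88, limma adjusted p = 0.0377), from a low level of 2.44 TPM in the control mean, a call that was lost without set 2 or set 3. *hnrnpk*, whose product binds the neurofilament medium transcript in frog axons, was far more abundant at 3122 TPM and had a log2 fold change of −0.27 with an adjusted p of 0.0509.

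The other cytoskeletal genes of neurons had more calls than the filament partners, on lists written with earlier results of these data known. Of 20 microtubule and growth cone genes tested, 8 were called lower and 0 higher. Among all genes tested, 5.87% were called lower and 2.62% higher. The list had a median of −0.38, against −0.068 over all genes tested. The 5 with the smallest adjusted p were *tubb2b* (−0.88, limma adjusted p = 0.0196), *tubb3* (−1.01, 0.0209), *mapt*, encoding the microtubule-binding protein tau (−0.87, 0.0253), *dpysl3*, a growth cone protein gene (−0.41, 0.0267), and *vamp2*, a synaptic vesicle fusion protein gene (−0.69, 0.0346). Leaving out set 1, 2 or 3 left 4, 4 and 2 lower calls on this list. Over all genes, 714 of 13432, 198 of 13338 and 63 of 13347 tested were then called lower.

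The next 2 lists stand beside 5.87% called lower and 2.62% called higher among all genes tested, with a median of −0.068. Among proneural and neuronal transcription factor genes, 6 of 27 tested were called lower and 0 higher, with a median of −0.22. They were led by *neurod1* (−0.97, limma adjusted p = 0.0196), *ebf2* (−0.62, 0.0221), *nhlh1* (−0.64, 0.0361), *mnx1* (−0.46, 0.0392) and *neurod4* (−0.46, 0.0395), all regulators of neuronal differentiation. Among neural plate genes 6 of 22 were called lower and 2 higher, with a median of −0.19, so calls on this list went both ways. Its lower genes included *sox1* (−0.76, 0.0209) and *pou3f1* (−0.65, 0.0236), and *pou5f3.1* (0.68, 0.0321), a gene of undifferentiated cells, was among the higher ones. The lower count also holds *nrp1* (−0.82, 0.0288), whose place among neural plate genes is uncertain. Leaving out set 3 left 0 lower calls on either list, and leaving out set 2 left 2 on each. Over all genes tested, the same settings left 63 and 198 lower calls. Without the replicate block no gene on any of these lists was called by limma, and at an unadjusted p under 0.05 that fit gave 4 lower microtubule genes, 7 lower transcription factor genes and 5 lower neural plate genes, beside 6.39% of all genes tested.

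**Figure D5:**
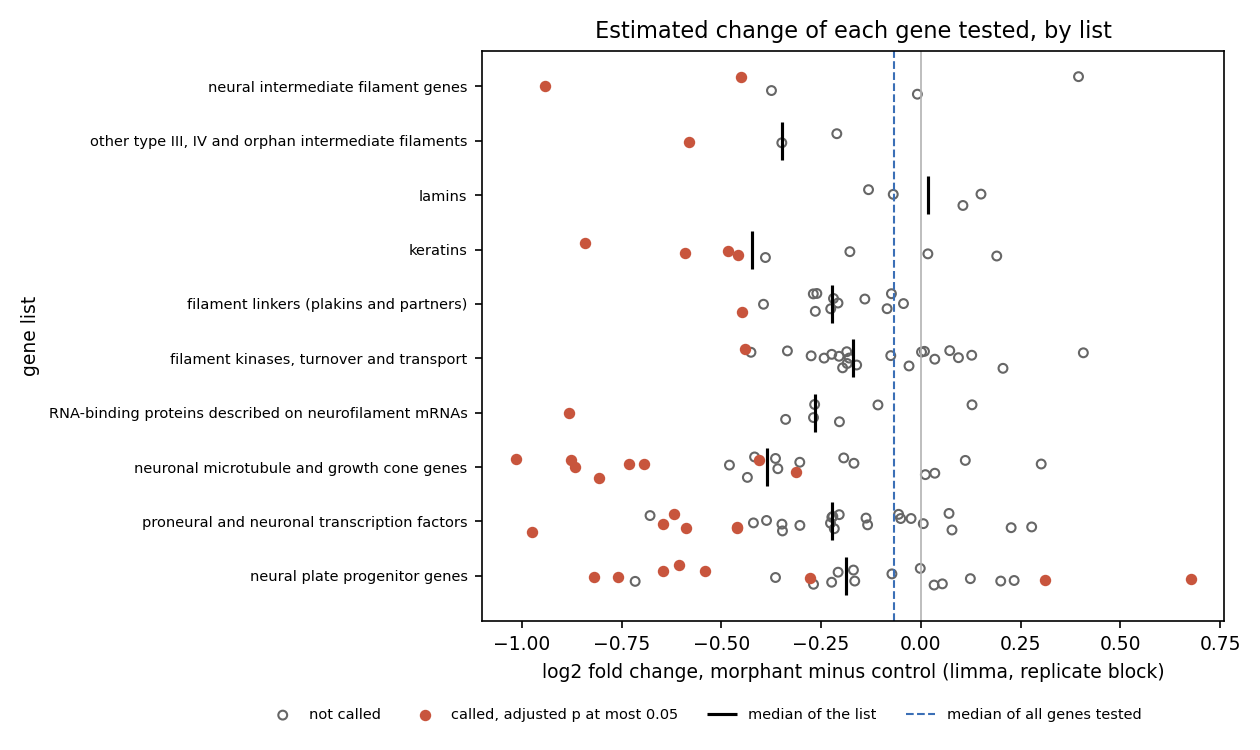
Log2 fold change, morphant minus control, of every tested gene of each list (points, jittered vertically; filled where the limma adjusted p is at most 0.05; black bars, list medians). *prph* at −0.94 and *vim* at −0.45 are the filled points of the top line, lamins are centered near 0 with a median of 0.018, and microtubule genes have 8 filled points, all below the dashed median of all genes tested, −0.068.

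Genes whose pattern over the 6 samples was most like that of a member were taken by Pearson's r of log2(TPM + 0.5) among tested genes with a mean of at least 5 TPM. For *prph* these were *shisa2* (0.998), *schip1* (0.998) and *efnb3* (0.996), and 4.41% of the genes compared had an r above 0.9. For *vim* they were *sox13* (0.993), *cfap58* (0.988) and *far1* (0.987), with 2.15% above 0.9, and for *nes* they were *armc4* (0.998), *mid1* (0.995) and *tube1* (0.994), with 5.31% above 0.9. The samples share 3 sets and 1 contrast, so a high r was common. For *nefm* the nearest genes included *acacb* (0.997) and *abcb8* (0.996), with 5.17% above 0.9, and for *nefl*, the member least like other genes, they were *utp25* (0.983), *qrich1.2* (0.973) and *zic4* (0.964), with 0.279% above 0.9. None of the named nearest genes was shared between members.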

How the data were processed

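RNA was extracted from whole embryos, poly(A) selected and made into directional libraries. The submitters' processing notes name cutadapt, Salmon and sleuth. Per the study's methods, the authors estimated transcript levels with Salmon on a reference transcriptome of the species and aggregated them to genes. The deposited unit is TPM, whose total is fixed for every sample. The study gives an approximate range of reads per sample, but TPM holds no read counts per gene, so counting errors and detection floors are unknown. The authors' group means equal the means of the samples and were not used. Sleuth was not run here. Column names gave the sample of all 6 columns used, and 0 other columns of per-sample values were present.

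Values were analysed as log2(TPM + 0.5) with limma 3.58.1 in R 4.3.3 (eBayes with a mean-variance trend, two-sided) over 13382 genes whose mean reached 1 TPM in one group or both. Genes were called where p after Benjamini-Hochberg adjustment did not exceed 0.05. The set, given by the replicate number, entered as a block. Samples are paired by the numbers shared between groups in the labels. The study describes sibling embryos and 3 sets of injected embryos, but does not tie these to the numbers. Deviations from group means correlated at 0.61 to 0.73 between samples of the same number and at −0.57 to −0.17 between other numbers. Deviations within a group cancel out, so positive values for the same number force the others toward negative values. The negative values are therefore no separate evidence for the pairing. For each gene, 2 residual degrees of freedom remain with the block and 4 remain when it is dropped, and p-values measure only the spread between these samples. The fit was run on simulated data with normal noise drawn from its own variances and planted changes of 1 log2 unit, up or down. Smaller changes, such as that fitted for *vim*, were not simulated.

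The members and gene lists were chosen with earlier results of these data known. Named genes are the 6 members, *src*, at most 5 called genes per list by smallest adjusted p, a few filament-related genes named whatever their result (*nefh*, *gfap*, the desmin genes, *synm*, *gan*, *hnrnpk*, *tubb2b* and *tubb3*), and the 3 genes most like each member. Reference genes of the ratios and the LOC pair stand outside this rule. Some genes that this rule selects are not reported here. Lists were described by counts and medians only. Alternatives were pseudocounts of 0.1 and 1, no filter and a filter at 5 TPM, no block, median scaling, quantile normalization, no trend, leaving out each set, a threshold of 0.01 and a fit without the LOC pair. No coordinates are given, since the RefSeq table and the expression table rest on different builds, and promoter and protein sequences were not analysed here.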

Additional observations from a re-analysis of the deposited data

How the results depend on the processing

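The call on *prph* (−0.94) was lost without a TPM filter, without the replicate block and at a threshold of 0.01, and ranged from −1.005 to −0.875 with a set left out. The call on *vim* was lost under these 3 settings and without a trend (−0.45 each) and with median scaling (−0.35). It was also lost without set 2 (−0.54) and without set 3 (−0.46). The value of *vim* ranged from −0.54 to −0.35 with a set left out. *nefm* turned positive with median scaling (0.088), quantile normalization (0.10), the LOC pair left out (0.0091) and set 1 left out, with a range of −0.080 to 0.13 over the sets left out. *ina* was at −0.78 and −0.20 with pseudocounts of 0.1 and 1, and at −0.41 to −0.29 with a set left out. Directions of *prph*, *vim*, *nes* and *nefl* held under every setting run.

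Of the members, 2 were called lower; this became 0 with no filter, no replicate block or a threshold of 0.01, 1 with median scaling or no trend, and 1 to 2 with a set left out, and 0 were called higher throughout. Over all genes, 786 called lower became 0 with no filter, 1 without the block, 381 with median scaling, 402 with quantile normalization, 368 without a trend, 0 at 0.01 and 63 to 714 with a set left out, and 350 called higher became 0, 0, 533, 384, 126, 0 and 44 to 472. With no filter, no replicate block or a threshold of 0.01, each list had 0 lower calls, although without a filter 3512 genes were lower at an unadjusted p under 0.05. Lower calls with median scaling, quantile normalization and no trend, then with a set left out, were 2, 4, 2 and 0 to 5 for keratins (main count 4), 0, 0, 0 and 0 to 0 for linkers (1), 5, 5, 3 and 2 to 4 for microtubule genes (8), 3, 3, 2 and 0 to 3 for transcription factors (6), and 3, 3, 3 and 0 to 7 for neural plate genes (6). The count of 1 for kinases became 0 without a trend and 0 to 0 with a set left out, and that of 1 for RNA-binding proteins became 2 with a pseudocount of 0.1, 0 with quantile normalization and 0 to 2 with a set left out. The cause of these shifts was not tested. TPM holds no read counts per gene, so the numbers of reads behind the scarce *nefl*, *nefm* and *ina* were not available, although the study gives an approximate depth per sample.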
